A study of Mus musculus with 15 samples.

Results

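The genes described here are 8 transcripts of the inflammatory cytokine system: the ligands Il1a, Il1b, Tnf and Il18 and the receptor chains Il1r1, Tnfrsf1b, Il6ra and Il10ra. They were taken by name from a deposited table of read counts for 53278 gene symbols, and all 8 were found in it. The counts came from the brain cortex of 15 male C57BL/6J mice aged 10 to 20 weeks, 5 in each of 3 groups, with 1 library per mouse. Control mice ate control food. Mice of the depletion group ate food with PLX3397, an oral inhibitor of the kinase receptor CSF1R, for 9 days. Mice of the repopulation group went back to control food for 9 days after the same 9 days of PLX3397. PLX3397 reaches every cell that depends on CSF1R, so that macrophages at the borders of the brain are exposed to it as well as microglia, and the control and repopulation groups ended on the same food.

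Interleukin-1 alpha and interleukin-1 beta are encoded by neighbouring genes and act on the same receptor, whose ligand-binding chain is the product of Il1r1. Interleukin-18 belongs to the same family, and like interleukin-1 beta it is released after an inflammasome activates caspase-1. Tumour necrosis factor acts on a widely expressed receptor and on a second one, encoded by Tnfrsf1b, that is more restricted. The interleukin-6 and interleukin-10 receptors each pair a ligand-specific chain, Il6ra or Il10ra, with a shared signalling chain. In the healthy brain microglia are known as a main source of interleukin-1 and tumour necrosis factor, and brain endothelial cells are known to carry Il1r1.

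Total counts per library ran from 23413551 to 48617851, and levels are given as CPM, read counts per 1000000 counts of the scaled library. The labelled tissue showed its defining transcripts: the summed level of 6 neuronal markers was between 6484 and 7414 CPM in every library. All 12 microglia markers fell in the depletion group, from a summed level of 324 to 355 CPM in control libraries to 29.0 to 35.9 CPM, and stood at 362 to 402 CPM after repopulation. All 12 pan-myeloid markers fell too, from 156 to 175 CPM in sum to 4.38 to 5.11 CPM, and among them Itgam was at 0 in the depletion group. The border macrophage sum fell from 29.8 to 39.3 CPM to 4.53 to 5.70 CPM, with Ms4a7 and Pf4 at 0. Markers of blood leukocytes summed to at most 1.03 CPM in any library. Choroid plexus markers reached 84.1, 213 and 110 CPM in depletion libraries 1, 2 and 3 and 549 CPM in repopulation library 4, against at most 23.9 CPM in control. Among other cell types, all 5 markers of oligodendrocyte precursors fell on depletion, from 143 to 172 CPM in sum to 54.8 to 101 CPM. Of 6 oligodendrocyte markers 4 rose on depletion and all 6 were lower after repopulation than on depletion. Of 7 astrocyte markers 1 rose on depletion and 4 were lower after repopulation than on depletion. The part of these cell types and of the choroid plexus in the results was not tested. In bulk tissue, fewer cells of a type and less RNA per cell cannot be told apart.

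Of the 8 genes, 6 passed the count filter and were tested in edgeR's quasi-likelihood fit of all 15 libraries, with Benjamini-Hochberg adjustment over 18369 genes and a threshold of 0.05. Il1b and Tnf were too low to judge. Il1a, Il10ra, Il6ra and Tnfrsf1b were lower in the depletion group than in control, and no change of Il18 or Il1r1 passed the test. Against control, 4 of the 6 tested genes fell and 0 rose, while 8.35% of all tested genes fell and 8.19% rose. Against depletion, the same 4 genes were higher after repopulation and 0 were lower, where 7.61% of all tested genes were higher and 8.98% lower. Repopulated cortex differed from control in 1 gene of the 6, Il10ra, which was higher, as were 13.9% of all tested genes, while 0 of the 6 and 15.2% of all were lower. Without the 4 choroid plexus libraries the log2 falls on depletion were -3.95 for Il1a, -1.91 for Il10ra, -2.07 for Il6ra and -1.65 for Tnfrsf1b. Each was still past the threshold. That fit keeps libraries 4 and 5 alone of the depletion group. A call lost in it may reflect the fewer libraries, and the cause was not tested. A gene that passes the filter through the groups where it is high is more likely to differ, and the comparisons share groups of libraries, so these counts describe the genes and do not support each other.

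**Figure D1:**
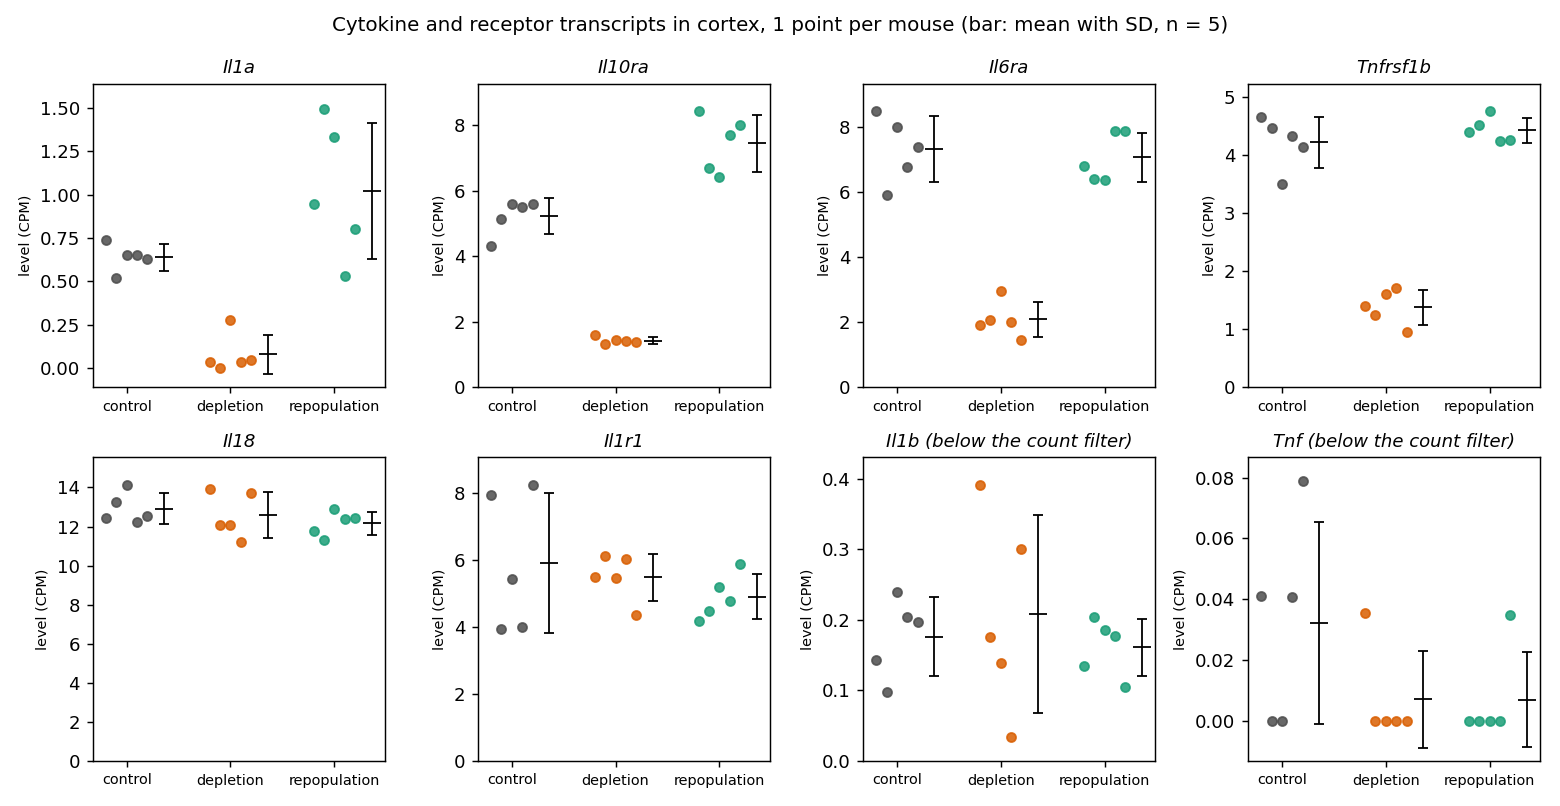
Level of each of the 8 genes in CPM (vertical axes, linear) in the control, depletion and repopulation groups, with 1 point per mouse and the mean with its SD (n = 5) beside the points. The 5 depletion points of Il1a, Il10ra, Il6ra and Tnfrsf1b lie below every control and repopulation point, those of Il18 and Il1r1 lie among them, and Il1b and Tnf rest on at most 11 and 2 reads in any library.

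Among the ligands, Il1a, the gene of interleukin-1 alpha, showed the largest loss on the log2 scale among the 6 tested genes. The control libraries held 36, 16, 19, 16 and 16 reads of Il1a, which are 0.737, 0.520, 0.651, 0.654 and 0.630 CPM. The depletion libraries held 1, 0, 8, 1 and 1 reads (0.0356, 0, 0.279, 0.0341 and 0.0430 CPM). The repopulation libraries held 28, 44, 36, 15 and 23 reads (0.944, 1.49, 1.34, 0.533 and 0.801 CPM). Every depletion library lay below every other library, and repopulation library 4 was the only one of its group within the control range.

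The level of Il1a was 0.639 ± 0.0778 CPM in control (SD, n = 5), 0.0783 ± 0.113 CPM in depletion and 1.02 ± 0.392 CPM after repopulation. The log2 fold change on depletion was -2.95 (SE 0.49, 95% interval -3.96 to -1.94, edgeR adjusted p = 0.0001249). Depletion library 3 held 8 of the 11 reads of its group. Without it the log2 fold change was -4.35 (edgeR adjusted p = 2.692e-06), and the mean share of the control level moved from 12.3% to 4.41%. In that library the microglia markers summed to 33.5 CPM and the pan-myeloid markers to 5.05 CPM, both within the range of the other depletion libraries. Its border macrophage sum, 4.53 CPM, was the lowest of the group. From depletion to repopulation, Il1a rose by 3.61 on the log2 scale (SE 0.46, edgeR adjusted p = 2.674e-06).

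After repopulation the mean of Il1a was 160% of control, a log2 difference of 0.66 (SE 0.32, 95% interval 0.01 to 1.32) that did not pass the threshold (edgeR adjusted p = 0.123). The groups overlapped, and the spread of Il1a among repopulated mice, 0.392 CPM, was wider than that among controls. Without the 4 libraries with high choroid plexus markers, which include repopulation library 4, the difference was 0.82 and passed (edgeR adjusted p = 0.01594). Over all alternatives its adjusted p ran from 0.01594 to 0.3277.

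Il1b, the gene of interleukin-1 beta, lies 54597 bases from Il1a and had few reads in every group. There were 7, 3, 7, 5 and 5 reads in the control libraries, 11, 5, 4, 1 and 7 in the depletion libraries and 4, 6, 5, 5 and 3 in the repopulation libraries. No group stood apart, and the summed counts were 27, 28 and 23 reads (95% Poisson upper limits 39.3, 40.5 and 34.5, which cover counting error only). The ratio of depletion to control was 1.19, with a 95% counting interval of 0.679 to 2.11. In an edgeR fit without the count filter, over 36695 genes, the log2 fold change was 0.24 (95% interval -0.80 to 1.28, adjusted p = 0.8841). A fall of Il1b as deep as that of Il1a lay outside this interval, while smaller falls and rises within it were compatible with the few reads.

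Tnf, the gene of tumour necrosis factor, was at the edge of detection. Reads were found in 3 of 5 control libraries, 5 reads in all, and in 1 library with 1 read in each of the other groups. The ratio of depletion to control was 0.230 with a counting interval of 0.00487 to 2.06, and that of repopulation to control was 0.222 with an interval of 0.00469 to 1.98. Both intervals include 1 and nearly complete loss, so no direction can be read for Tnf.

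Promoters are shown for both interleukin-1 genes, neighbours of which one fell and the other was too low to judge, and for Il6ra and Tnfrsf1b, receptor genes that fell. They run from 250 bases before to 50 bases after the transcription start, 5′ to 3′ on the gene's strand, from RefSeq on GRCm38.p6, which has the coordinates of the mm10 build named by the submitters. The table held promoters for 7 of the 8 genes. Capitals mark matches to GAGGAA, the core recognised by the myeloid factor PU.1, or to TATAAA, the TATA box, on either strand.
Il1a (chr2:129309923-129310222, minus strand): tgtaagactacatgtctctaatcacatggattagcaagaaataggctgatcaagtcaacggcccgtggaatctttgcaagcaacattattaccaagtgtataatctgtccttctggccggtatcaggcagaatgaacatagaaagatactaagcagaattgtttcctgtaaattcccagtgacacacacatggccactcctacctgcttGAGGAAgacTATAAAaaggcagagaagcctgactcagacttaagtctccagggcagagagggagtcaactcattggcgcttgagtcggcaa
Il1b (chr2:129371090-129371389, minus strand): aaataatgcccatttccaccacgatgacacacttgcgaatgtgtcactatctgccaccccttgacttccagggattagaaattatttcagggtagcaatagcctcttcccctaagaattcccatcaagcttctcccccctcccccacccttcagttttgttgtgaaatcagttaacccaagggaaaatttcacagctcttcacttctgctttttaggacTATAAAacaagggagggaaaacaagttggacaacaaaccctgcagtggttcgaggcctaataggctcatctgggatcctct
Il6ra (chr3:89913147-89913446, minus strand): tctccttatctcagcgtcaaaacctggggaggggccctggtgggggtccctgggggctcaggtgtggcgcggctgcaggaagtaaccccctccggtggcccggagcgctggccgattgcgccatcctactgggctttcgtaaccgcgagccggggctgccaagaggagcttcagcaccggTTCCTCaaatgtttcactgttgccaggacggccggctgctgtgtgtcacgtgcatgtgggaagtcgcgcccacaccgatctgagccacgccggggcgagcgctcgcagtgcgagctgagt
Tnfrsf1b (chr4:145246821-145247120, minus strand): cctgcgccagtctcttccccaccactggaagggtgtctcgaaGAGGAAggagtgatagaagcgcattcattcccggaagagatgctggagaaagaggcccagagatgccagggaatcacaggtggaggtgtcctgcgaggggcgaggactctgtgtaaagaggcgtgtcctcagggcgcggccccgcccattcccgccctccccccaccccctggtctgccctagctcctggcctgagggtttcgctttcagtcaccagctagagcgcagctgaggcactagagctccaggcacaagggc

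Il1a and Il1b each held a TATA box, with its first base at -32 and -31 from the start, as did Tnf at -29, and the promoter of Il18 held the same letters on the opposite strand at -175. GAGGAA was found in the promoters of Il1a at -41, Tnfrsf1b at -208 and, on the opposite strand, Il6ra at -70 and Tnf at -117, and no match was found in the windows of Il1b, Il18 and both starts of Il1r1. Of 32851 promoters of 300 bases, 28.3% held GAGGAA and 13.6% held TATAAA. A kappa B consensus (in 4.51% of promoters) was matched in the second Il1r1 start alone, and TTGCNNAA, a C/EBP-type motif (10.8%), in the first Il1r1 start alone. These matches describe the letters only.

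Il18, the gene of interleukin-18, showed no change that passed the test. It was at 12.5, 13.2, 14.1, 12.2 and 12.5 CPM in the control libraries, 13.9, 12.1, 12.1, 11.2 and 13.7 CPM in the depletion libraries and 11.8, 11.3, 12.9, 12.4 and 12.4 CPM in the repopulation libraries. The groups overlapped throughout. On depletion the log2 fold change was -0.04 (SE 0.07, 95% interval -0.18 to 0.11, edgeR adjusted p = 0.7783), and after repopulation it was -0.09 against control (interval -0.23 to 0.06, adjusted p = 0.3796). These values rest on 2044, 1727 and 1736 reads of Il18 in the 3 groups.

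Among the receptors, Il10ra, the ligand-binding chain for the anti-inflammatory interleukin-10, fell and then rose above the control level. It was at 4.32, 5.14, 5.59, 5.51 and 5.59 CPM in control, 1.60, 1.30, 1.43, 1.40 and 1.38 CPM on depletion and 8.43, 6.68, 6.42, 7.71 and 8.01 CPM after repopulation. The 3 groups did not overlap. The log2 fold changes were -1.86 on depletion (SE 0.12, edgeR adjusted p = 8.394e-12), 2.39 from depletion to repopulation (SE 0.12, adjusted p = 2.234e-14) and 0.52 for repopulation against control (SE 0.10, 95% interval 0.31 to 0.73, adjusted p = 0.0003294). The last difference kept its direction and its side of the threshold in every one of 24 alternatives, with values of 0.45 to 0.56.

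Il6ra, which binds interleukin-6, fell on depletion and returned to the control range. Its levels were 8.50, 5.92, 8.02, 6.78 and 7.40 CPM in control, 1.92, 2.08, 2.96, 2.01 and 1.46 CPM on depletion and 6.81, 6.41, 6.38, 7.89 and 7.90 CPM after repopulation. Every depletion library lay below the others, and control and repopulation overlapped. The log2 fold change was -1.80 on depletion (SE 0.14, edgeR adjusted p = 1.888e-10) and -0.06 for repopulation against control (95% interval -0.30 to 0.19, adjusted p = 0.776).

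Tnfrsf1b, the more restricted receptor of tumour necrosis factor, followed the same course. It was at 4.65, 4.46, 3.50, 4.33 and 4.13 CPM in control, 1.39, 1.23, 1.60, 1.71 and 0.946 CPM on depletion and 4.38, 4.51, 4.75, 4.23 and 4.25 CPM after repopulation. No depletion library reached the lowest value of the other groups. The log2 fold change was -1.60 on depletion (SE 0.14, edgeR adjusted p = 1.491e-09) and 0.07 for repopulation against control (95% interval -0.18 to 0.31, adjusted p = 0.7308).

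Il1r1, the signalling receptor of interleukin-1, showed no change that passed the test, unlike the microglial markers. It was at 7.93, 3.94, 5.42, 4.00 and 8.23 CPM in control, 5.48, 6.10, 5.47, 6.01 and 4.34 CPM on depletion and 4.18, 4.48, 5.19, 4.76 and 5.88 CPM after repopulation. The controls were spread most widely, with libraries 1 and 5 above every library of the other groups. The log2 fold change was -0.12 on depletion (SE 0.19, 95% interval -0.52 to 0.29, edgeR adjusted p = 0.7452) and -0.28 after repopulation against control (interval -0.69 to 0.12, adjusted p = 0.2971). A loss as deep as that of Il6ra or Tnfrsf1b lay outside the interval on depletion, while smaller falls and rises within it were compatible with the data. Beside it, 4 of 8 endothelial markers fell on depletion and 0 rose, with summed levels of 207 to 235 CPM in control, 184 to 202 CPM on depletion and 232 to 243 CPM after repopulation. Their part in the level of Il1r1 was not tested.

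**Figure D2:**
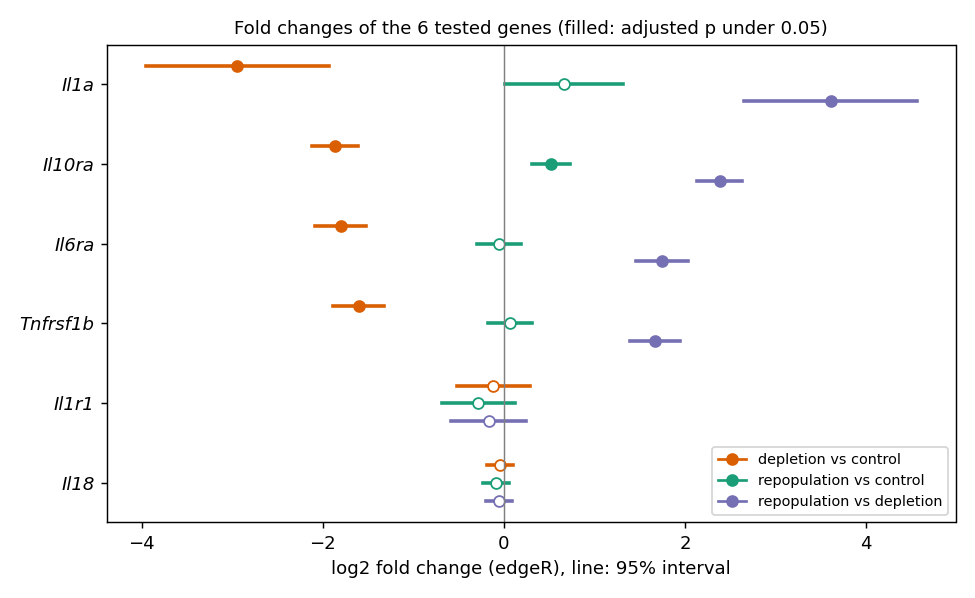
Log2 fold change from edgeR (horizontal axis) of the 6 tested genes in 3 comparisons, with 95% intervals as lines and filled points for adjusted p under 0.05. Il1a, Il10ra, Il6ra and Tnfrsf1b lie between -2.95 and -1.60 on depletion, and for repopulation against control only Il10ra, at 0.52, has a filled point.

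The course of Il10ra after repopulation can be set against that of the other 3 genes that fell, by the log2 ratio of their levels within each library (0.1 CPM added to both). These ratios were chosen after the values were seen. An exact permutation test was run on them, but for that reason it cannot serve as support, and the ratios are given as a description. The log2 ratio of Il10ra to Il6ra was 0.07 ± 0.13 after repopulation and -0.47 ± 0.30 in control (SD, n = 5 each), and that of Il10ra to Tnfrsf1b was 0.73 ± 0.23 and 0.31 ± 0.28. That of Il1a to Il10ra was -2.82 ± 0.66 after repopulation and -2.85 ± 0.26 in control, a difference of 0.03. The groups did not overlap for Il10ra to Il6ra and overlapped for the other ratios.

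The share of the control level left on depletion is given beside that of the markers as a description, and the differences were not tested. The depletion group stood at 12.3% of the control mean for Il1a, 27.2% for Il10ra, 28.5% for Il6ra and 32.6% for Tnfrsf1b. The median microglia marker was left at 0.971% (12 genes, 0.230 to 58.8%) and the median pan-myeloid marker at 1.19% (12 genes, 0 to 32.8%). Aif1, Ptprc and Cd68 were the pan-myeloid markers above the share of Il1a, at 23.2, 18.9 and 32.8%. Per library, the shares ran from 24.9 to 30.6% for Il10ra, 20.0 to 40.4% for Il6ra and 22.5 to 40.5% for Tnfrsf1b. Il1r1 stood at 92.9%, Il18 at 97.6% and Il1b at 118%, the last with an SD of 79.3 percentage points.

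After repopulation, the shares were 160% for Il1a, 142% for Il10ra, 105% for Tnfrsf1b, 96.6% for Il6ra, 94.2% for Il18 and 83.0% for Il1r1. The median microglia marker stood at 111% (50.7 to 124%) and the median pan-myeloid marker at 109% (90.5 to 183%). Il10ra divided by the median microglia marker share of the same library was 1.08 to 1.52 after repopulation and 0.812 to 1.12 in control. These ranges overlap narrowly. Divided by the median pan-myeloid marker share, it was 1.14 to 1.54 and 0.765 to 1.11, ranges that did not overlap. For Il6ra the quotient to the microglia markers was 0.769 to 0.998 after repopulation and 0.792 to 1.14 in control. Its quotient to the pan-myeloid markers was 0.781 to 1.08 and 0.832 to 1.07. The quotients were not tested.

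**Figure D3:**
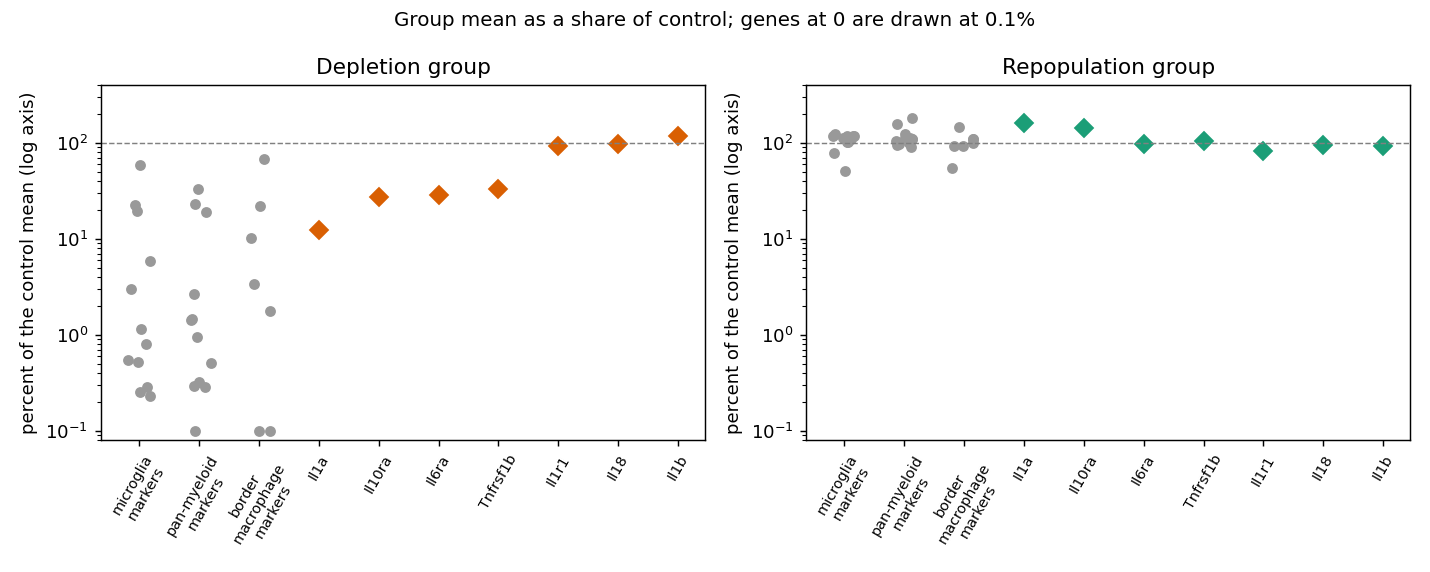
Group mean as a percentage of the control mean (vertical axes, logarithmic) for the depletion and repopulation groups, with grey points for single marker genes and diamonds for 7 of the 8 genes (Tnf is too low to draw). On depletion the diamonds run from 12.3% for Il1a to 118% for Il1b, above the marker medians of 0.971% and 1.19%, and genes at 0 are drawn at 0.1%.

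Levels between genes were compared per kilobase of annotated exon. In control cortex Il18 was highest at 12.5 ± 0.756 CPM per kilobase, followed by Il10ra at 1.50 ± 0.155, Tnfrsf1b at 1.10 ± 0.116, Il1r1 at 0.928 ± 0.326, Il6ra at 0.848 ± 0.118, Il1a at 0.323 ± 0.0394, Il1b at 0.0925 ± 0.0294 and Tnf at 0.0196 ± 0.0202 (SD, n = 5 each). The library ranges of Tnfrsf1b, Il1r1 and Il6ra overlapped each other, and those of Il10ra and Il1r1 did too. On depletion the order became Il18, Il1r1, Il10ra, Tnfrsf1b, Il6ra, Il1b, Il1a and Tnf. From Il10ra on, the ranges of neighbours in this order overlapped. Il10ra ran from 0.373 to 0.458, Tnfrsf1b from 0.248 to 0.447 and Il6ra from 0.169 to 0.343 CPM per kilobase. Il1b ran from 0.0179 to 0.205 and Il1a from 0 to 0.141 CPM per kilobase. After repopulation Il10ra, at 2.13 ± 0.247 CPM per kilobase, was again second to Il18.

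On GRCm38 all 8 are annotated as protein-coding genes. Il1a lies on chromosome 2 from 129299610 to 129309972 and Il1b from 129364570 to 129371139. Il10ra lies on chromosome 9 from 45253837 to 45269149 and Il18 on the same chromosome from 50554827 to 50581840. Il6ra lies on chromosome 3 from 89864059 to 89913196, Tnfrsf1b on chromosome 4 from 145213463 to 145246870, Il1r1 on chromosome 1 from 40225080 to 40317257 and Tnf on chromosome 17 from 35199381 to 35202007. The use of strand in counting is not given in the sources used here, and 3 genes share exon bases with an antisense transcript. Gm14023 overlaps 11.2% of the exon bases of Il1a, Gm42809 2.80% of those of Il6ra and Il1bos 1.31% of those of Il1b. Gm14023 had medians of 8 reads per library in every group, with 8 reads in depletion library 3 and 9 in depletion library 1, so the few reads of Il1a on depletion are uncertain.

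The tested genes with the most similar course were found by the root mean square difference of log2 CPM, less the control mean, over the 15 libraries. For Il1a they were Ikzf1 (0.47), Nckap1l (0.52) and Tlr7 (0.54). For Il10ra they were Lyn (0.17), Dock8 (0.22) and Inpp5d (0.23), and Lyn was at 6.08, 1.64 and 7.68 CPM in control, depletion and repopulation. For Il6ra they were Lpcat2 (0.26), Slco2b1 (0.26) and Aif1 (0.26), and for Tnfrsf1b they were Tgfbr1 (0.17), Lpcat2 (0.21) and Slco2b1 (0.24). Lpcat2 and Slco2b1 thus appear for both Il6ra and Tnfrsf1b. Il18 had Atp9a, Edc3 and Bak1 nearest (0.07 each), and Il1r1 had Rcn3, Lpin3 and Lcat (0.20, 0.20 and 0.21).

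Other genes of these pathways were counted in 9 lists of 146 genes, of which 117 were tested. On depletion 38 fell and 5 rose, 36.8% of those tested against 16.5% of all genes, with a median log2 fold change of -0.15 against -0.00186 over all genes. The 5 that rose became 1 without the 4 libraries with high choroid plexus markers, 1 with length and GC trends taken out, and 2 or 3 without any one of control libraries 1, 2 and 5 and depletion libraries 1, 3 and 5. Against depletion, 33 were higher after repopulation and 5 lower, 32.5% against 16.6% of all genes. Against control, 13 were higher and 12 lower after repopulation, 21.4% against 29.1% of all genes. The counts of single lists below stand beside these shares of all tested genes: 8.35% lower and 8.19% higher on depletion. For repopulation against control the shares were 15.2% lower and 13.9% higher, and for repopulation against depletion 8.98% lower and 7.61% higher. Counts near these shares are no result about a list.

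Genes of the inflammasome, the complex that activates caspase-1 for the release of interleukin-1 beta and interleukin-18, fell on depletion in 6 of 10 tested cases and rose in 0, with a median log2 fold change of -0.85. Nlrp3, its best-known sensor, went from 0.968 ± 0.271 CPM in control to 0.0805 ± 0.0301 CPM (SD, n = 5 each, log2 fold change -3.55, edgeR adjusted p = 2.509e-08). The sensor gene Nlrp1b fell (adjusted p = 7.666e-08) and had 2 reads on depletion, both in library 1, which is 2.17% of the control level with a 95% counting interval of 0.260 to 8.05%. Its fitted log2 fold change was -5.17, and -7.31 without that library. Pycard, the adaptor, fell by 1.49 on the log2 scale (adjusted p = 1.137e-06). From depletion to repopulation 8 of the 10 rose and 0 fell. Against control, Nlrp1b (0.68, adjusted p = 0.04617) and the DNA sensor gene Aim2 (0.55, adjusted p = 0.01552) were higher after repopulation, and the call of Nlrp1b was lost without any one of control libraries 1, 2, 4 and 5 and repopulation libraries 1, 2 and 5, with the replicate block, without the count filter and with length and GC trends taken out (adjusted p up to 0.1437).

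In the interleukin-1 family list, 6 of 12 genes in the table were tested, and on depletion 2 rose and 1 fell. Il1rap, the accessory chain that Il1r1 needs to signal, was at 49.3 ± 3.11 CPM in control and 57.3 ± 2.63 CPM on depletion (0.22, edgeR adjusted p = 0.001686). Il33, an alarmin of the same family, rose by 0.16 (adjusted p = 0.03351) and Il1rl2, a receptor of interleukin-36, fell by 0.97 on the log2 scale (adjusted p = 0.04313). All 3 calls were lost without the 4 choroid plexus libraries, where depletion libraries 4 and 5 alone remain of their group. The call of Il33 was lost without any one of control libraries 1, 2 and 5 and depletion libraries 1, 2, 3 and 5, and that of Il1rl2 without any one of control libraries 1, 3 and 5, depletion libraries 2, 3 and 4 and repopulation library 2. Against control, 0 of the 6 differed after repopulation in edgeR, and 2, Il1rap and Il1rl2, had an unadjusted p under 0.05. Il1rap (0.12, adjusted p = 0.05413) passed in DESeq2, at a minimum of 1 CPM in 5 libraries and without control library 5, and Il1rl2 (0.65, adjusted p = 0.08942) passed without the count filter, with 2 groups only and without depletion library 4. Of 12 signalling genes downstream of this receptor and the Toll receptors, Irak2, a kinase of the receptor complex, fell by 0.23 on depletion (adjusted p = 0.002972) and stayed 0.24 lower after repopulation (log2 difference -0.24, adjusted p = 0.001296). It was the 1 gene of this list that was lower after repopulation than in control, and 4 were higher: Tab2 (0.17, adjusted p = 0.0009074) and Map3k7 (0.11, adjusted p = 0.01707), which encode parts of the TAK1 kinase complex, Traf6, an adaptor, and Irak1. Without control library 1 the count of higher genes was 2. Map3k8, a kinase upstream of ERK, fell by 0.56 (adjusted p = 0.005713), a call lost without the 4 choroid plexus libraries (adjusted p = 0.1469).

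Among 16 tested genes of tumour necrosis factor release and signalling, 4 fell and 1 rose on depletion. The gene that rose, Cyld, a deubiquitinase gene named after its values were seen, lost its call without any one of control libraries 2, 3 and 5 and depletion libraries 1, 3 and 5, and without the 4 choroid plexus libraries. Casp8, the initiator caspase of death receptors, went from 2.13 ± 0.403 to 0.796 ± 0.244 CPM (-1.40, edgeR adjusted p = 1.65e-05) and its inhibitor gene Cflar fell by 0.48 (adjusted p = 4.012e-05). Tnfrsf1a, the widely expressed receptor, fell by 0.40 (adjusted p = 0.003419) to 75.6% of its control level. Adam17, the protease that sheds tumour necrosis factor, was 0.29 higher than control after repopulation (adjusted p = 0.0006168), and Tradd, an adaptor of the receptor, was lower (-0.35, adjusted p = 0.04644), a call lost in 10 of 24 alternatives, among them leaving out any one of control libraries 1 to 4 and repopulation libraries 1, 2 and 5. Of 13 NF-kB genes, 3 fell and 1 rose on depletion (0 rose without control library 1 or 5 or without the 4 choroid plexus libraries). The subunit gene Rela was at -0.18 (adjusted p = 0.01523), and at -0.08 with length and GC trends taken out (adjusted p = 0.3188). The subunit gene Nfkb2 fell further (adjusted p = 0.01745), with values of -0.49 to -0.37 over 24 alternatives. Its call was lost without control library 3, without the 4 choroid plexus libraries and with length and GC trends taken out (adjusted p up to 0.09636). Against control, Relb alone differed after repopulation (-0.36, adjusted p = 0.02172), a call lost without control library 1 or 5 or repopulation library 4 and with length and GC trends taken out.

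In the interleukin-6 and interleukin-10 list, 3 of 12 tested genes fell on depletion and 1 rose, and 1 fell without any one of control libraries 1 and 2 and depletion library 5. Socs3, a feedback inhibitor of interleukin-6 signalling, fell by 0.43 (edgeR adjusted p = 0.0118). Its call was lost without the 4 choroid plexus libraries and with length and GC trends taken out (adjusted p up to 0.1156). The shared signalling chains were named for their pairing with Il6ra and Il10ra, after their values were seen. Il6st, the partner of Il6ra, was at 101 ± 5.40 CPM in control and 96.0 ± 6.44 CPM on depletion (-0.07, adjusted p = 0.3031), and Il10rb, the partner of Il10ra, fell by 0.34 (adjusted p = 0.03395). The call of Il10rb was lost in 9 of 24 alternatives, among them leaving out any one of control libraries 1, 2 and 4 and depletion libraries 2, 3 and 5, and leaving out the 4 choroid plexus libraries (adjusted p = 0.07869). Against control, 1 gene was higher after repopulation, the kinase gene Jak1 (0.16, adjusted p = 0.0002624), and 2 receptor chains were lower, Il11ra1 (-0.36, adjusted p = 0.0003938) and Cntfr (-0.12, adjusted p = 0.01942), the latter call lost without control library 5 or repopulation library 1 and its sign turned with length and GC trends taken out. The ligands Il6 and Il10 did not pass the count filter, with means of at most 0.0698 and 0.00788 CPM in any group.

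Of 22 tested interleukin and colony-stimulating factor genes 8 fell on depletion and 0 rose, and 5 fell without the 4 choroid plexus libraries. Csf3r, the granulocyte colony-stimulating factor receptor, went from 7.28 ± 0.599 to 0.0507 ± 0.0184 CPM (-7.05, edgeR adjusted p = 3.151e-20) and stood at 11.6 ± 0.930 CPM after repopulation, 0.66 above control (adjusted p = 3.481e-06). Csf2rb, the common chain of the granulocyte-macrophage factor receptor, fell (adjusted p = 1.026e-10) and had 3 reads on depletion, 1.72% of the control level with a counting interval of 0.352 to 5.10%. Its fitted log2 fold change was -5.61, and -6.56 without depletion library 4. It was 0.57 above control after repopulation (adjusted p = 0.03428), a call lost without any one of control libraries 1 to 4 and repopulation libraries 2, 3 and 5. Il21r, the interleukin-21 receptor, fell by 4.11 (adjusted p = 2.975e-09). Against control, 3 of the 22 genes were higher after repopulation and 2 lower, where 13.9% of all tested genes were higher and 15.2% lower. The lower ones were Il34, a ligand of CSF1R (-0.26, adjusted p = 0.0004621), and Il17d (-0.24, adjusted p = 0.003332). Neither of the lower calls held with length and GC trends taken out. Without control library 1 or 3 the list had 1 gene higher. Of 19 other tumour necrosis factor superfamily genes, 9 fell on depletion and 0 rose (5 fell without control library 5 or depletion library 4), led by the receptor genes Tnfrsf13b (-3.48, adjusted p = 1.261e-08), Tnfrsf25 (-1.15, adjusted p = 0.001159) and Tnfrsf14 (-1.47, adjusted p = 0.00136). Against control, 1 gene was higher after repopulation, the ligand gene Tnfsf13b (0.60, adjusted p = 0.01499, lost without repopulation library 1), and 3 were lower (5 without control library 2), among them the receptor gene Tnfrsf12a (-0.61, adjusted p = 0.003419). Tnfrsf25 was still lower than control after repopulation (-0.67, adjusted p = 0.01662), though not with length and GC trends taken out (-0.52, adjusted p = 0.07319).

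Of 7 tested chemokine ligands 2 fell on depletion and 0 rose, and 5 fell without control library 2 or depletion library 1 and 4 without depletion library 3. In control Ccl9 was at 0.744 ± 0.271 CPM, and on depletion it had 0 reads in the 5 libraries, which makes it at least 34.4-fold lower at a floor of 3 reads over the group. Ccl6 fell by 3.80 (edgeR adjusted p = 3.606e-06). Cxcl10, an interferon-induced chemokine gene, was at 0.310 ± 0.161 CPM in control and 0.849 ± 0.229 CPM after repopulation (1.48, adjusted p = 0.003114). Cxcl14 (-0.25, adjusted p = 0.0002118) and Cx3cl1, the ligand of the microglial receptor Cx3cr1 (-0.18, adjusted p = 0.005242), were lower than control, Cxcl14 not with length and GC trends taken out (adjusted p = 0.05599).

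**Figure D4:**
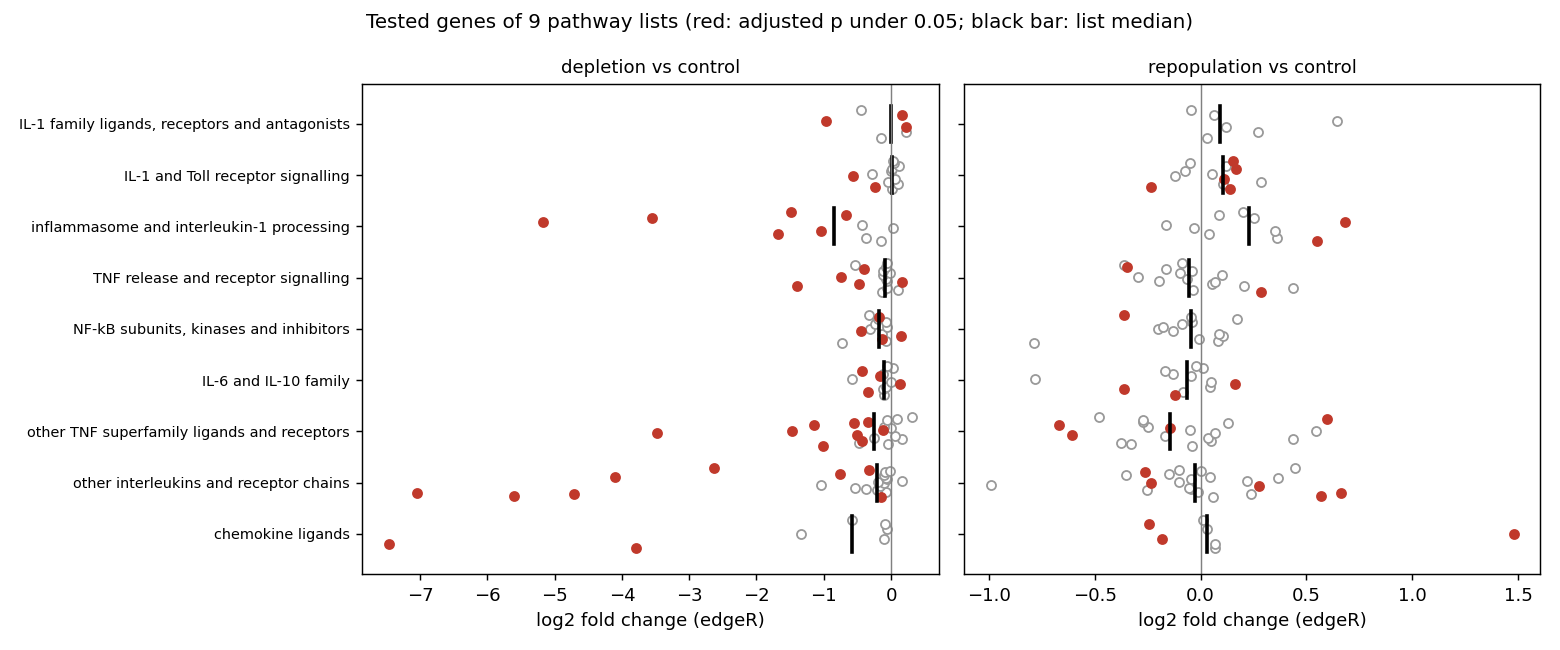
Log2 fold change from edgeR (horizontal axes, of different ranges) of the tested genes of 9 pathway lists, 1 point per gene, red where the adjusted p was under 0.05, with a black bar at each list's median. On depletion the inflammasome list has the lowest median, -0.85, Ccl9, with 0 reads on depletion, is drawn at its fitted value, and for repopulation against control the medians lie between -0.14 and 0.23.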

How the data were processed

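Per the labels, bulk RNA was taken from brain cortex, 1 library per mouse. The deposited table holds raw read counts per gene symbol, as whole numbers. The submitters' processing notes name STAR, FastQC, MultiQC, DESeq and DESeq2 and the build mm10, without roles or versions. How strand, annotation and counter were set is not given in the sources used here, so genes that overlap another are uncertain. Columns were matched to samples by group and mouse number, with 0 left over, and no pair of libraries was identical (chi-square of 2.53 to 9.95 per degree of freedom within groups).

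The test was edgeR 4.0.16, run in R 4.3.3: filterByExpr (minimum count 10), TMM scaling and the robust quasi-likelihood F test on all 15 libraries, checked on simulated data. CPM uses TMM-scaled totals of the tested genes. Marker and list counts are calls of the same fit, given without a test of the list. DESeq2 1.42.0, other filters and scalings, fits of 2 groups, a block on mouse number and leaving out each library were tried, and, chosen after seeing the data, leaving out 4 libraries with high choroid plexus markers and taking out length and GC trends. Library totals of 23413551 to 48617851 set the precision, and intervals on counts cover counting error only.

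The 8 genes and all lists were chosen with earlier results of these data known. The text names the 8 genes, for each list and comparison up to 3 called genes of lowest adjusted p, and the 3 nearest genes in course, and says where others were chosen later. Some that the rule selects are not described. Coordinates and exon lengths came from GENCODE M21 on GRCm38, which is mm10, and promoters from RefSeq.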

Additional observations from a re-analysis of the deposited data

Results flagged for a closer look

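In groups of 5 libraries, 11 of 159 combinations of gene and group held 1 library far from the others by Dixon's criterion (a gap above 0.71 of the range). A rate of about 1 in 20 by chance holds for normally distributed values and not for genes with few reads. Where 1 library alone held reads, as for Tnf and Nlrp1b below, the gap is the whole range. Il1a on depletion was at 0.279 CPM in library 3, with the next at 0.0430 CPM. Tnf was at 0.0356 CPM in depletion library 1 and 0.0348 CPM in repopulation library 5, 1 read each, with the others of each group at 0. Nlrp1b was at 0.0712 CPM in depletion library 1 and 0 in the other depletion libraries. Ccl6 after repopulation was at 0.984 CPM in library 2, with the next at 0.539 CPM. Il21r on depletion was at 0.129 CPM in library 5, with the next at 0.0712 CPM. Irak2 on depletion was at 18.3 CPM in library 1 and Tradd on depletion at 5.78 CPM in library 3, each above the rest. Map3k8 in control was at 2.61 CPM in library 4. Chuk after repopulation was at 54.2 CPM in library 3 and Il17d on depletion at 18.4 CPM in library 2, each below the rest.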

How the results depend on the processing

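Of 429 alternative values for the fold changes of the 6 tested genes, 428 kept their side of the threshold, and no called value changed sign. Values near 0 of Il18, Il1r1 and Il6ra, in comparisons where no alternative passed, took either sign. The exception was Il1a for repopulation against control, at 0.82 (edgeR adjusted p = 0.01594) without the 4 choroid plexus libraries. All 94 alternative values of levels and shares moved by less than 1 SD, which says little about stability. The shares were recomputed without 1 of the 5 libraries, and that cannot move a mean by 1 SD. The levels were recomputed only with plain library totals in place of scaled ones. Il1a has no value at a minimum of 1 CPM in 5 libraries. With length and GC trends taken out, 809 genes were higher on depletion in place of 1505, 1 list gene was higher on depletion in place of 5, and 5 list genes were lower after repopulation than control in place of 12. Without the 4 choroid plexus libraries, 589 and 260 genes were higher and lower for repopulation against depletion in place of 1398 and 1649, and 1 list gene was higher on depletion and 1 lower for repopulation against depletion in place of 5 each. That fit has fewer samples, with depletion libraries 4 and 5 alone left of their group. For the other changes the cause was not tested. Leaving out single libraries gave 2 to 5 list genes higher on depletion, 8 to 14 higher after repopulation than control (8 without control library 1) and 0 to 6 lower for repopulation against depletion (0 without depletion library 1). Among 1296 alternative counts for single lists, 1129 stayed within 1.5 times. For 47 named list genes, 3176 of 3365 alternative fold changes kept their call, 152 lost it, 36 gained one and 1 changed sign: Cntfr, lower after repopulation than control at -0.12, was at 0.0141 with length and GC trends taken out.

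The mouse numbers did not pair the libraries: of 15 pairs with the same number, 1 had a correlation of deviations over 0.1, and 1 of 15 libraries correlated best with its own number. With the replicate block, 1376 genes were higher and 1456 lower on depletion, and all 18 fold changes of the 6 genes kept their call (Il1a -3.00, Il10ra -1.87). Among the list genes described above, the block ended the calls of Nlrp1b and Tradd for repopulation against control.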
